A study of Mus musculus with 13 samples.

Results

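Transcripts of tumor-infiltrating leukocytes were compared between a CT26 tumor sample irradiated with a single dose of 7.5 Gy (7.5 Gy × 1) and an unirradiated one (0 Gy), both in the late (T14) phase, 14 days after the start of radiotherapy. The pair makes up 2 of the 13 samples of the series and was chosen by condition, phase and nCounter run: both samples were read in run 2, whereas the 2 Gy × 5 sample of T14 came from another run and was left out. Of the 547 endogenous probes of the panel, 415 had a mean count over the 13 samples above 13.1, the average over samples of the mean plus 2 SD of the negative-control probes, and these 415 genes were compared.

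CT26, a mouse colon carcinoma line, was implanted in the flank of female BALB/c mice aged 6 weeks. Tumors of the irradiated mice received local radiotherapy 12 days later, and CD45+ cells, which are leukocytes, were enriched magnetically from the dissociated tumors for RNA. Mice of both groups carried the same tumor line and no other treatment is named, and the samples labelled "Nadir" were taken as T14 from the study's description of its phases, since the labels give no day. The methods give 3 mice per group, but 1 sample per condition was available here and whether it pooled several mice was not stated, so there was no replicate and no test, and each interval below covers counting error only.

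Irradiated tumor cells that die can release nucleic acids and antigens, which innate sensors and dendritic cells take up. Type I interferon made in response induces interferon-stimulated genes, and interferon-γ from T and NK cells acts on antigen processing genes and on Cd274, which encodes PD-L1. Activated CD8 T cells carry granzyme B and perforin and display PD-1, the receptor of PD-L1, encoded by Pdcd1.

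The interferon-stimulated genes that lead the comparison are commonly bound at an interferon-stimulated response element, searched here as GAAA followed by any 2 bases and by GAAA again, on both strands from 250 bases before to 50 bases after each gene's start (RefSeq, GRCm38.p6). The letters occurred in 5 of the 33 genes at least 2-fold higher after 7.5 Gy × 1 that the promoter table holds (15.2%), in 17 of 275 other compared genes (6.18%) and in 1079 of 27025 genes of the whole table (3.99%). The 5 genes were Bst2, Irgm1, Stat2, Tnfrsf14 and Ifih1, and no match was found in the windows of Irf7, Psmb9, Tap1 and Cd274. The interferon-γ activated site, searched as TTCNNNGAA on both strands of the same window, occurred in 7 of the 33 genes (21.2%), 36 of 275 (13.1%) and 2582 of 27025 (9.55%). For 3 interferon-stimulated genes described next, 100 bases around the response element are shown, with the matching letters in capitals. The window of Bst2 lies at chr8:71537542-71537641 on the minus strand, that of Irgm1 at chr11:48871421-48871520 on the minus strand and that of Stat2 at chr10:128270248-128270347 on the plus strand. Bst2 and Irgm1 each hold a pair of overlapping matches, the first beginning 130 and 30 bases before the start, and the match of Stat2 begins 222 bases before it and reads on the opposite strand.
Bst2: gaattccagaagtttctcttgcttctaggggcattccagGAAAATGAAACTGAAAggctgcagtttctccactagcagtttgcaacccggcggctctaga
Irgm1: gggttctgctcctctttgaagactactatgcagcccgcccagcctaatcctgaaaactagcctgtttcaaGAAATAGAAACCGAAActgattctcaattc
Stat2: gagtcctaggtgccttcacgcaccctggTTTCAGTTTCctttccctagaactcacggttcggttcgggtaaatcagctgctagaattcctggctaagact

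The sample irradiated with 7.5 Gy × 1 had 217723 counts in all and the 0 Gy sample 166307, within the range of 166307 to 675847 over the 13 samples. A count at or under the mean plus 2 SD of a sample's own negative controls was treated as background, which was 18.3 counts in the 0 Gy sample and 12.5 counts in the 7.5 Gy sample, and 346 of the 415 genes were above it in both. Levels are the deposited normalized values, in which counts are scaled to 14 housekeeping probes, and background corresponds to normalized values of 30.4 and 18.1. After this scaling the housekeeping probes differed between both samples by a log2 difference of −0.46 to 0.36 (SD 0.25 over probes), and none differed 2-fold. The positive-control probes had geometric means of 239 and 233 counts. Where a gene was at background in the lower sample, its fold is given as a bound, "at least", computed against the higher of that background and its own value. Such a bound does not cover counting error.

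Genes were mostly higher after 7.5 Gy × 1: 49 genes were at least 2-fold higher (11.8% of 415) and 3 at least 2-fold lower (0.723%), and 304 genes were above and 111 below equality. The median log2 difference over all 415 genes was 0.24 (quartiles −0.03 and 0.67), so that part of each gene's difference was common to the panel. Another scaling moved this median by up to 0.49: scaling by edgeR's TMM factors placed it at 0.00, with 29 genes higher and 11 lower. Scaling by 6 pan-leukocyte genes placed it at −0.25, with 17 higher and 20 lower. Each scaling shifts all genes by the same log2 amount, between −0.49 and 0.16. Whether a list median stays above 0 thus follows from its size alone and is no separate check. The distance of a list from the all-gene median is the same under each scaling. List medians are therefore set beside 0.24 below, and 17 genes were at least 2-fold higher under each of the 6 other scalings tried, among them C4a, Cd6, Cfb, Ctla4, Cul9, Cxcr6, Gzmb, Icos, Ifih1, Il2rb, Irf7, Klrd1, Pdcd1, Runx3, Stat2 and 1 panel gene, RefSeq NM_019494.1, whose identifier matched no current symbol. Of these 17, 8 were above background in both samples. Of the 49 higher genes, 28 were above background in both samples, which is 8.09% of the 346 such genes. Another 20 were at background at 0 Gy, 4 of them with a bound of at least 2-fold, and 1, Cul9, had too few counts for a fold. All 3 lower genes were at background after 7.5 Gy × 1. The counting interval excluded equality for 46 of the 49 higher genes (11.1% of 415), the exceptions being Cd226, Cd79b and Il27, and for the 3 lower ones.

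**Figure D1:**
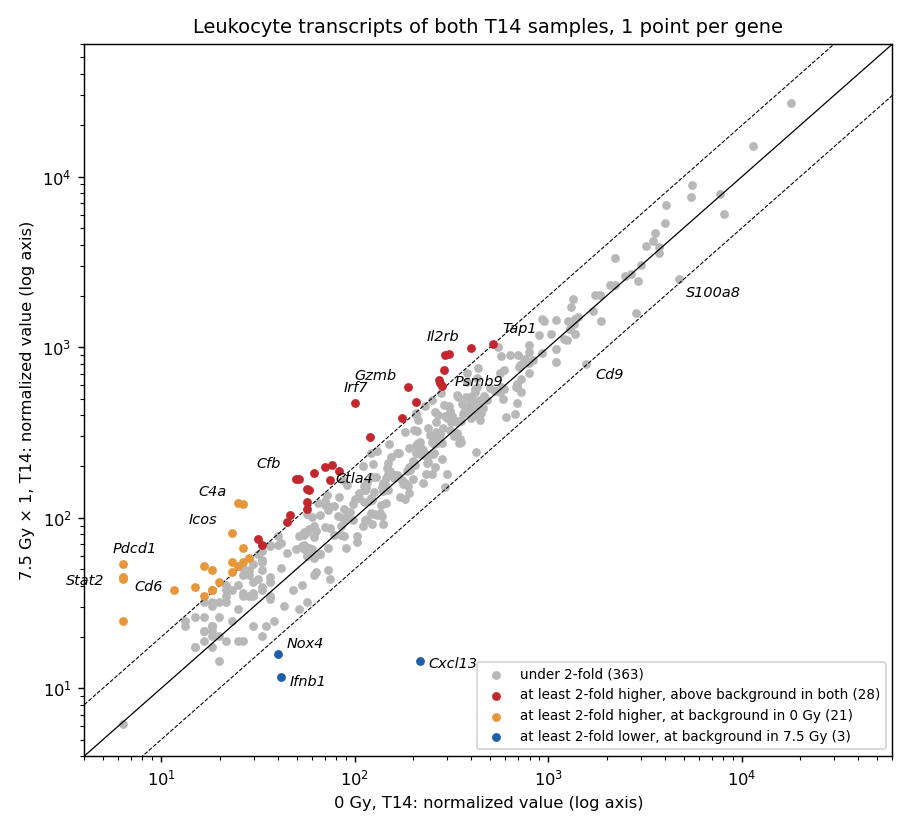
Normalized value of each of the 415 genes in the 0 Gy sample (x axis, log scale) and the 7.5 Gy × 1 sample (y axis, log scale) of T14, 1 point per gene. The solid line marks equal values and the dashed lines 2-fold differences. The 28 red and 21 orange genes lie above the upper dashed line, the orange ones at background at 0 Gy, and the 3 blue ones, Cxcl13, Ifnb1 and Nox4, lie below the lower line.

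Interferon-stimulated genes formed the first large group. Irf7, whose product drives further interferon transcription once the pathway is active, had a normalized value of 474 (327 counts) after 7.5 Gy × 1 and 99.7 (60 counts) at 0 Gy, a 4.75-fold difference (95% interval 3.60 to 6.37). The irradiated value exceeded all 5 unirradiated samples of the series, which lay between 55.3 and 170. Stat2, a signal transducer of the type I interferon receptor, had 30 counts against 4, at least 1.43-fold higher, since 4 counts were background.

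Ifit2, an interferon-induced RNA-binding protein, was at 203 and 76.4 (2.65-fold, 1.89 to 3.79). Bst2, which encodes the surface protein tetherin, was at 985 and 397 (2.48-fold, 2.14 to 2.89). Here the direction depended on the unirradiated sample chosen: the 0 Gy value of T14 was the lowest of the 5 unirradiated samples for both genes, and baseline Bst2, at 1099, was above the irradiated sample. Ifih1, the cytosolic RNA sensor MDA5, was at 183 and 61.5 (2.97-fold, 2.04 to 4.41), and Irgm1, an interferon-inducible GTPase, at 588 and 281 (2.10-fold, 1.75 to 2.52).

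Over the type I interferon list, 5 of 13 compared genes were at least 2-fold higher, beside 11.8% of all 415 genes. Of these 5, 4 were above background in both samples, and 1 other listed gene was lower. The list's median log2 difference was 0.59, against 0.24 over all genes, and stayed above 0 under all 6 other scalings. The interferon receptor genes Ifnar1 and Ifnar2 differed little (0.04 and −0.06), as did the receptor genes Ifngr1 and Ifngr2 of interferon-γ (0.07 and 0.10). Ifnb1, the gene of interferon-β itself, went the other way, with 8 counts against 25, at least 2.30-fold lower. Its 0 Gy value of 41.5 was the highest of the 5 unirradiated samples, the others lying between 12.7 and 24.3, and was 25 counts against a background of 18.3.

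Of the 20 genes of the interferon-γ pathway and its targets, 7 were at least 2-fold higher, beside 11.8% of all 415 genes, and none lower. The list's median of 0.75 stayed above 0 under all 6 other scalings. Ifng itself was barely detected, at 33 counts against 14, so that it was at least 1.57-fold higher. Cxcl10 and Cxcl9, chemokines that interferon-γ induces and that attract activated T cells, lay just short of 2-fold, at 449 against 229 (log2 0.97) and 542 against 279 (0.96). The transcription factors Irf8 and Irf1 followed at 0.87 and 0.64, whereas Icam1, Socs1, Socs3 and Nos2 lay between −0.17 and 0.22.

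Genes of peptide processing for MHC class I were higher, the MHC genes themselves less so. The immunoproteasome subunit Psmb9 was at 735 against 289 (2.54-fold, 2.13 to 3.04) and Psmb10 at 645 against 271 (2.38-fold, 1.99 to 2.87). Both had their highest level of all 13 samples in the 7.5 Gy × 1 sample of T14, but this rank crosses runs. Unirradiated samples of run 2 were also higher for Psmb9, at 289 and 286 against 145 to 162 in the other runs. For Psmb10 they were at 271 and 213 against 96.7 to 154. The part of the run in these ranks was not tested. Tap1, the peptide transporter, was at 1043 against 518 (2.01-fold, 1.76 to 2.31) and stood just inside the 2-fold threshold.

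Tapbp, the chaperone tapasin, had a log2 difference of 0.80, H2-K1 0.38 and B2m 0.39, and the constitutive proteasome subunits Psmb5 and Psmb7 had 0.14 and 0.24. Of the 8 compared class I genes, 3 were higher, beside 11.8% of all 415 genes, and none lower. Their median of 0.59 stayed above 0 under all 6 other scalings. Ciita, the master regulator of MHC class II genes, was at 113 against 56.5 (2.00-fold, 1.32 to 3.09), the last gene inside the threshold. The class II list as a whole had a median of 0.21, which turned below 0 under 4 of the 6 other scalings (DESeq2, TMM, total counts and pan-leukocyte genes), and its H2-DMb2 was at −0.51.

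Cytotoxic lymphocyte genes formed the second large group and had the highest median of the 28 lists that had compared genes. All 11 compared genes of the CD8 and cytotoxic list were above equality, 6 of them at least 2-fold, beside 11.8% of all 415 genes. The median was 1.04 against 0.24 over all genes. Being larger than the largest downward shift of −0.49, it stayed above 0 under all 6 other scalings. Gzmb, granzyme B, was at 581 against 189 (401 and 114 counts; 3.07-fold, 2.49 to 3.81), and Prf1, perforin, at 167 against 74.8 (2.23-fold, 1.57 to 3.22). Granzyme B in the 5 unirradiated samples ranged from 72.8 to 243, so the irradiated sample lay above all of them.

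Runx3, a transcription factor of the CD8 lineage, was at 168 against 51.5 (3.26-fold, 2.18 to 5.02), and Xcl1, a chemokine that attracts cross-presenting dendritic cells, at 145 against 58.2 (2.49-fold, 1.68 to 3.77). Il2rb, the β chain of the receptors for interleukin-2 and interleukin-15, was at 897 against 292 (3.07-fold, 2.59 to 3.65), its highest level of the 13 samples. Klrk1, which encodes the activating receptor NKG2D, was at least 2.19-fold higher, with 46 counts against 16. Gzma was at 1001 against 550 (log2 0.86), and the T-bet gene Tbx21 and Eomes had 0.91 and 0.80. Cd8a, the gene that marks these cells, had 32 counts against 16, the latter at background, and the interval of the ratio ran from 0.929 to 3.40, so a difference was not detectable at this depth. With background genes set at their bounds, the list's median was 0.86.

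T cell receptor genes were higher by smaller amounts. Cd3e had 65 counts against 27 (2.10-fold, 1.32 to 3.42), Cd3d 48 against 20 (2.09-fold, 1.22 to 3.72) and the receptor-proximal kinase Lck 85 against 34 (2.18-fold, 1.45 to 3.35). Cd2, an adhesion receptor, was at 104 against 46.5 (2.24-fold, 1.43 to 3.60), below the 221 of the highest unirradiated sample, while Cd6 and Cd5, both inhibitory surface receptors of T cells, were at least 1.48-fold and 1.71-fold higher. In all, 6 of 17 compared genes were at least 2-fold higher, beside 11.8% of all 415 genes. Of these 6, 4 were above background in both samples. The median was 0.57 and stayed above 0 under all 6 other scalings. With background genes at their bounds it was 0.37, less than the log2 shift of −0.49 under pan-leukocyte scaling, so that version does not stay above 0. Members differed among themselves: Zap70 and Cd247 had log2 differences of 0.57 and 0.24, and Tcf7, a transcription factor of naive and stem-like T cells, was at 31.9 against 56.5 (−0.83). Il7r, the interleukin-7 receptor, was likewise lower, at 91.3 against 140 (−0.61). In bulk samples such as these, a change in the number of cells of a type and a change in RNA per cell cannot be told apart.

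Several checkpoint receptors and Icos were higher after 7.5 Gy × 1. Ctla4 was at 199 against 69.8 (2.84-fold, 2.00 to 4.12), close to the 206 of the baseline sample, and Icos, an inducible co-stimulator, had 56 counts against 14, at least 2.67-fold higher. Pdcd1, the gene of PD-1, had 37 counts against 6. Its normalized value was 53.6 in the irradiated sample, the highest of the 13 samples, and listed at the floor of 6.38 at 0 Gy, below the other unirradiated samples (12.3 to 29.1). Since background at 0 Gy reached 30.4, PD-1 was at least 1.76-fold higher.

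Cd274, the gene of its ligand PD-L1, was at 617 against 276 (426 and 166 counts; 2.24-fold, 1.87 to 2.69), above the 163 to 499 of the unirradiated samples. The second ligand Pdcd1lg2 had 24 counts against 17, and the interval of 0.634 to 2.44 left no detectable difference. Tnfrsf14, the herpesvirus entry mediator, was at 475 against 206 (2.31-fold, 1.87 to 2.86), whereas Tigit, an inhibitory receptor of T and NK cells, was at 47.8 against 63.2 (log2 −0.40). Over the checkpoint list 4 of 8 compared genes were at least 2-fold higher, beside 11.8% of all 415 genes. Of these 4, 3 were above background in both samples. The list's median of 0.73 stayed above 0 under all 6 other scalings.

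Markers of CD4 and regulatory T cells were led by these same receptors. Il2ra, the α chain of the interleukin-2 receptor, had 52 counts against 19 (2.39-fold, 1.39 to 4.27), and Gata3, a transcription factor of type 2 helper cells among others, was at least 1.81-fold higher. Foxp3, which defines regulatory T cells, had 24 counts against 13, with an interval of 0.788 to 3.44 that included equality, and Cd4 was at 65.2 against 49.9 (log2 0.39). The list had 4 of 10 compared genes at least 2-fold higher, beside 11.8% of all 415 genes. Its median of 0.83, or 0.73 with background genes at their bounds, stayed above 0 under all 6 other scalings.

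Among NK cell genes, Klrd1, the CD94 chain of NK receptors, had 26 counts against 7, at least 1.24-fold higher. Only 5 of the 14 panel genes of the NK list were compared, and the other 9 were at background in both samples. The B cell list had Cd79b as its single 2-fold higher member, at 26 counts against 11 with an interval of 0.981 to 4.62. Its defining gene Cd79a (12 and 8 counts) was at background in both samples and had been left out by the filter, and its median of 0.15 turned below 0 under 4 of the 6 other scalings.

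**Figure D2:**
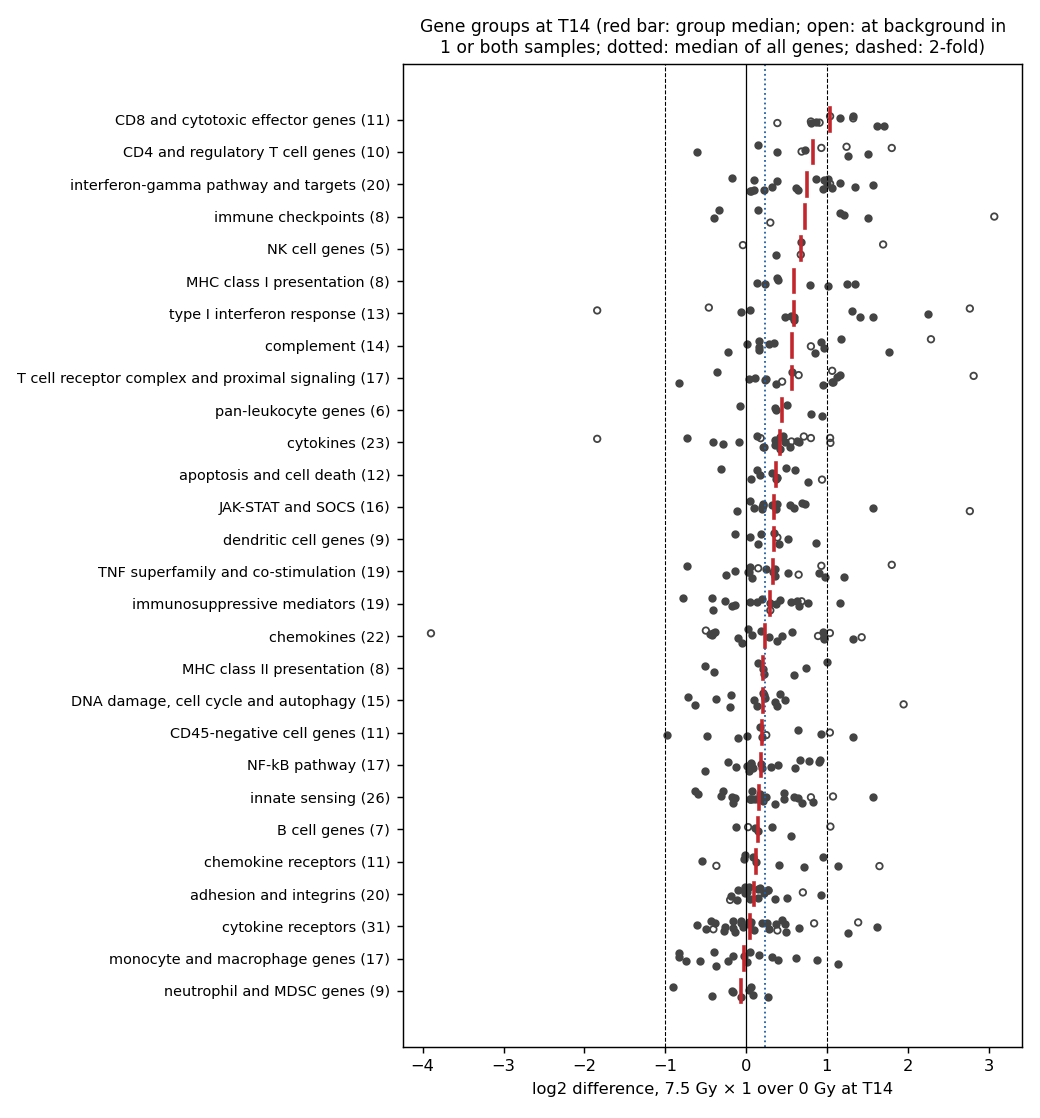
Log2 difference of 7.5 Gy × 1 over 0 Gy at T14 (x axis) for the compared genes of each list (y axis, number of genes in brackets), 1 point per gene, with open points for genes at background in 1 or both samples, a red bar at each list's median, a dotted line at the all-gene median of 0.24 and dashed lines at 2-fold. Lists are ordered by median, from 1.04 for CD8 and cytotoxic genes to −0.07 for neutrophil and MDSC genes.

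Few myeloid genes were at least 2-fold apart under housekeeping scaling. The lists of monocytes and macrophages, neutrophils and myeloid-derived suppressor cells (MDSC), and dendritic cells together held 35 compared genes, of which 1 was at least 2-fold higher (2.86%) and the median was 0.05. By comparison, 18 of 50 genes of the 5 lymphocyte lists (36.0%) and 12 of 45 genes of the 4 interferon and MHC lists (26.7%) were, with 1 gene in both, and 19 of 290 genes outside all of these lists (6.55%). Many of the higher lymphocyte genes were at background at 0 Gy. Of genes above background in both samples, 4 of 13 T cell receptor, 4 of 6 CD8 and 2 of 6 CD4 genes were higher. None of 2 NK and 5 B cell genes was. The monocyte list had 1 of 17, and the neutrophil and dendritic lists had none of 9 and 8. Over all such genes the share was 8.09% of 346.

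The 1 higher myeloid gene was Ccr2, the receptor that brings inflammatory monocytes into tissue, at 387 against 176 (2.20-fold, 1.75 to 2.78) and below the 417 of the highest unirradiated sample. The Fc receptor genes went apart: Fcgr4 was at 701 against 381 (log2 0.88) and Fcgr1 at 659 against 429 (0.62), while the inhibitory receptor Fcgr2b was at 1584 against 2822 (−0.83) and Fcgr3 at 180 against 301 (−0.74). Cd163, a scavenger receptor of resident-type macrophages, was at 29.0 against 51.5 (−0.83). The lineage genes Adgre1, Itgam, Itgax and Csf1r had log2 differences of 0.32, −0.18, 0.15 and −0.16, of which Adgre1 turned below 0 under pan-leukocyte scaling (−0.16) and Itgax under that (−0.34) and under DESeq2, TMM and total-count scaling.

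The macrophage median was −0.02 and the neutrophil and MDSC median −0.07, and both turned above 0 under scaling by the positive-control probes. S100a8, a calprotectin subunit made by neutrophils and monocytes, was at 2520 against 4729 (log2 −0.91), and S100a9, the other subunit, at 6045 against 8098 (−0.42). The summed level of the 9 neutrophil and MDSC genes was 10478 against 14715, a difference carried by these 2 genes, since the other 7 summed to 1913 against 1888. That of the 6 pan-leukocyte genes was 2488 against 1795, with a median of 0.44 (below 0 under scaling to these genes). Ptprc, the gene of CD45, was at 900 against 633, so leukocyte RNA was present in both samples, whose purity was not tested. The dendritic cell list had no gene at 2-fold and a median of 0.34 that turned below 0 under pan-leukocyte scaling, led by Irf8 at 0.87. Batf3, a factor of cross-presenting dendritic cells, had been left out by the filter, at 27 counts against 6.

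Markers of cells without CD45 moved little as a group. Of the 11 listed genes 2 were at least 2-fold higher, beside 11.8% of all 415 genes, and none lower. The summed level was 5027 against 4867, and the median of 0.20 turned below 0 under 4 of the 6 other scalings. The higher genes were Thy1 (299 against 120), which T cells also carry, and Cxcl12, a stromal chemokine, at least 1.90-fold higher. Fn1 at 1456 against 931 and Cd34 at 1422 against 1266 were well above background in both samples. Pecam1 of endothelium and the matrix gene Fn1 had log2 differences of 0.93 and 0.65, and Cd9, a tetraspanin, was at 796 against 1570 (−0.98). The part of such cells, or of the lower S100a8 and S100a9 levels, in the other differences was not tested.

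Complement genes included some of the largest differences. Cfb, factor B of the alternative pathway, was at 170 against 49.9 (3.40-fold, 2.26 to 5.26), and Serping1, the C1 inhibitor, at 187 against 83.1 (2.25-fold, 1.61 to 3.18). C4a had 84 counts against 15, at least 4.0-fold higher, but it has a near-identical copy in C4b, and the probe may not tell them apart. Together 3 of 14 compared genes were at least 2-fold higher, beside 11.8% of all 415 genes, with C3 at 0.86 and the C1q genes C1qa and C1qb at 0.01 and 0.16. The median of 0.57 stayed above 0 under all 6 other scalings. With background genes at their bounds it was 0.32, less than the log2 shift of −0.49 under pan-leukocyte scaling, so that version does not stay above 0. The largest bound after C4a belonged to the unmatched gene NM_019494.1, at 83 counts against 16 and at least 3.95-fold higher.

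Chemokines had the single largest difference, in the other direction. Cxcl13, which attracts B cells and follicular helper T cells, had 10 counts against 130, at least 11.9-fold lower after 7.5 Gy × 1. The 0 Gy sample stood apart here: its normalized value of 216 was the highest of the 13 samples, and the other unirradiated samples had 9.26 at baseline, 7.67 at T2, 38.2 at T7 and 43.2 at T21. The irradiated value of 14.5 lay within that range. Ccl11 (eotaxin) was at least 1.62-fold higher, with 34 counts against 11. The chemokines of myeloid cells Ccl2, Ccl3, Ccl4 and Cxcl1 had log2 differences of 0.07, −0.05, −0.42 and −0.10, and the list's median of 0.23 turned below 0 under 4 of the 6 other scalings. Among receptors, Cxcr6, carried by tissue-homing effector T cells, had 36 counts against 10, at least 1.71-fold higher, and Cxcr3, the receptor of Cxcl9 and Cxcl10, had a log2 difference of 0.95, the receptor list's median of 0.13 turning below 0 under the same 4 scalings.

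The third lower gene was Nox4, an NADPH oxidase, with 11 counts against 24, at least 2.20-fold lower. Its normalized value of 15.9 was below the 25.6 to 50.6 of the 5 unirradiated samples. The other higher genes were mostly near background: Il27, Il12rb2, Nod2, Cd226 and Map4k1, which encode a cytokine, a chain of the interleukin-12 receptor, a sensor of bacterial peptidoglycan, an activating receptor of lymphocytes and a kinase of T cell signaling, were at least 1.14-fold to 1.81-fold higher. For Il27 and Cd226 the counting interval included equality. Tnfaip6, a hyaluronan-binding secreted protein, was measured in both samples, at 148 against 56.5 (2.62-fold, 1.76 to 3.98). Just outside the threshold lay the RNA sensor gene Ddx58 (log2 0.99), Ly86 (0.98) and Tnfsf13b (0.97) on the higher side, and Cd9 (−0.98), Fkbp5 (−0.96) and S100a8 (−0.91) on the lower side. Under TMM scaling these 3 lower ones and Fcgr2b, Cd163, Tcf7, Cd109 and Nt5e passed 2-fold lower.

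Inflammatory signaling genes differed less. No gene of the NF-kB list reached 2-fold (median 0.18), Tnf was at 407 against 673 (log2 −0.72), Il10 at −0.41, Il6 at 0.63 and Il1b at 0.48. Innate sensing had 2 of 26 compared genes higher, Ifih1 and Nod2, beside 11.8% of all 415 genes. Its median of 0.16 and that of NF-kB turned below 0 under DESeq2, TMM, total-count and pan-leukocyte scaling. The list of DNA damage, cell cycle and autophagy had Cul9 as its single higher gene, at 17 counts against 5, with Cdkn1a (p21) at 0.38, Trp53 at −0.18 and a median of 0.20 that turned below 0 under the same 4 scalings. No gene of the adhesion list or of the apoptosis list was 2-fold apart, with medians of 0.10 and 0.38, of which the first turned below 0 under those 4 scalings and the second under pan-leukocyte scaling alone. Cytokines, with Ifng and Il27 higher and Ifnb1 lower among 23 genes, had a median of 0.42. Cytokine receptors had 0.04 with 3 of 31 higher, and JAK-STAT genes 0.35 with 2 of 16 higher. TNF superfamily and co-stimulation genes had 0.34 with 2 of 19 higher, and immunosuppressive mediators 0.30 with Cd274 alone higher of 19. These counts of higher genes were near or under the share of 11.8% of all 415 genes. The medians of these 5 lists also turned below 0 under pan-leukocyte scaling, and that of cytokine receptors under 5 of the 6 other scalings.

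The 5 unirradiated samples come from different days and 3 runs, and they are not replicates. For 57 genes, all samples of run 2 lay outside the values of the other runs. Of these, 1 was at least 2-fold apart at T14. Ranks across samples of different runs can therefore depend on the run, which was not tested. After 7.5 Gy × 1, 36 of the 49 higher genes exceeded all 5 unirradiated samples, as did 131 of all 415 genes (31.6%). The 49 were chosen for exceeding 1 of these 5, the 0 Gy sample of T14. Their share, like the others of called genes below, therefore depends on that choice. The 0 Gy sample of T14 was the lowest unirradiated one for 8 of the 49 (Bst2, Cd6, Cul9, Gata3, Ifit2, NM_019494.1, Pdcd1 and Stat2), and for 68 of 415 genes (16.4%). In the other direction, Ifnb1 and Nox4 were below all 5 unirradiated samples after 7.5 Gy × 1, as were 25 of 415 genes (6.02%). For Ifnb1 this rank orders values at background. It had 8 counts in the irradiated sample (background 12.5) and 10 in the lowest unirradiated one, of T7 (background 17.5). The 0 Gy sample of T14 was the highest unirradiated one for Cxcl13 and Ifnb1 and for 66 of 415 genes (15.9%). Unirradiated samples also differed from each other: between the 0 Gy samples of T21 and T14, read in the same run, 156 genes were at least 2-fold lower at T21 (37.6%) and 5 higher (1.20%), more than differed between both samples of T14. Between T2 at 0 Gy and baseline, in run 3, 24 genes were lower (5.78%) and 3 higher (0.723%).

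**Figure D3:**
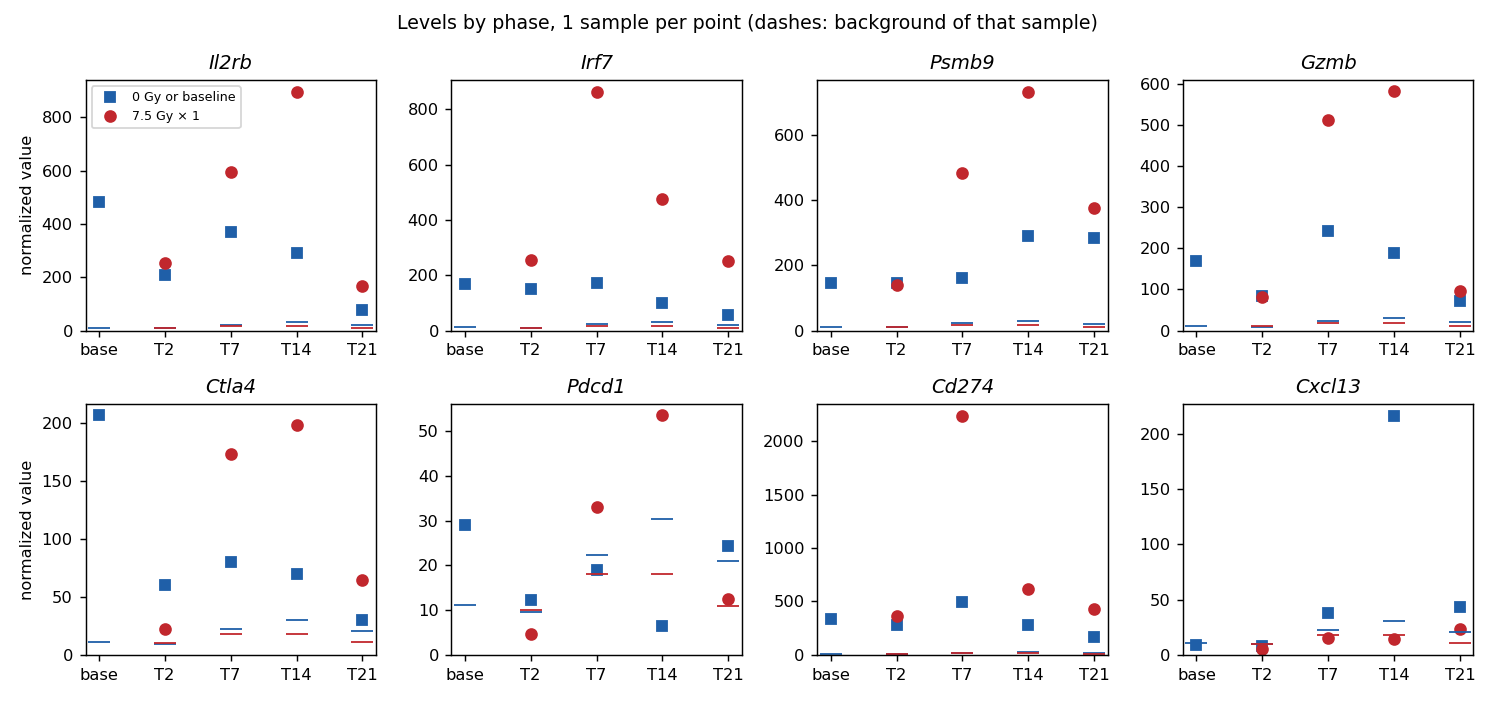
Normalized value (y axis, linear) of 8 genes at baseline and each phase (x axis), with blue squares for baseline and 0 Gy, red circles for 7.5 Gy × 1, 1 sample per point, and short dashes at each sample's background. Il2rb, Irf7, Psmb9, Gzmb, Pdcd1 and Cd274 were higher after 7.5 Gy × 1 than in any unirradiated sample at T14, Ctla4 was close to baseline, and the Cxcl13 value of 216 at 0 Gy stood alone.

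The same contrast was available at 3 other phases, from samples not used at T14. Over all 415 genes, 7.5 Gy × 1 had 15 genes at least 2-fold higher (3.61%) and 71 lower (17.1%) than 0 Gy at T2, 92 higher (22.2%) and 7 lower (1.69%) at T7, and 58 higher (14%) and 10 lower (2.41%) at T21. Of the 49 genes higher at T14, 26 were higher at T7, which is 53.1% of the 49 and 28.3% of the 92 of T7, and 9 at T21, and none was at least 2-fold lower at either phase. At T2, 8 of the 49 were at least 2-fold higher and 12 lower, the latter being Cd2, Cd226, Cd3e, Cd6, Cd79b, Ctla4, Cxcr6, Icos, Il2ra, Lck, Pdcd1 and Xcl1, while Cd3d, Cd5 and Map4k1 had log2 differences of −0.33, −0.71 and 0.48. The median log2 difference of the 49 was 0.14 at T2, 1.02 at T7 and 0.32 at T21, beside −0.01, 0.48 and 0.21 over all genes. Higher at T7, T14 and T21 alike were, among others, Ccr2, Cd274, Cfb, Ctla4 and Irf7.

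Gene groups differed in their course. The interferon-γ list had medians of 0.30, 1.60, 0.75 and 0.39 at T2, T7, T14 and T21, and the type I interferon list 0.51, 1.28, 0.59 and 0.21, so both had their highest value at T7. Among the interferon genes, Irf7 had log2 differences of 2.34, 2.25 and 2.19 at T7, T14 and T21, and Irgm1 2.59, 1.07 and 0.68. The CD8 and cytotoxic list had −0.19, 0.88, 1.04 and 0.21 and the T cell receptor list −0.71, 0.44, 0.57 and −0.05. Over all genes the medians were −0.01, 0.48, 0.24 and 0.21. The T cell receptor list thus lay near the all-gene median at T7 and above it at T14. The CD8 and cytotoxic list lay above it at both phases. With background genes at their bounds the T14 medians were 0.86 and 0.37.

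PD-L1 gene Cd274 had its highest difference at T7 (2.16), against 1.16 at T14 and 1.39 at T21. Gzmb had 1.07, 1.62 and 0.41 at the same phases, and Pdcd1, at or near background in most of these samples, had 0.79 at T7 and −0.96 at T21. The neutrophil and MDSC list ran from −1.27 at T2 to 1.47 at T7, −0.07 at T14 and 1.20 at T21, and S100a8 from 1.70 at T7 to −0.91 at T14. These phases were read in different runs, T2 in run 3, T7 in run 1 and T14 and T21 in run 2, but each pair lay within 1 run.

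**Figure D4:**
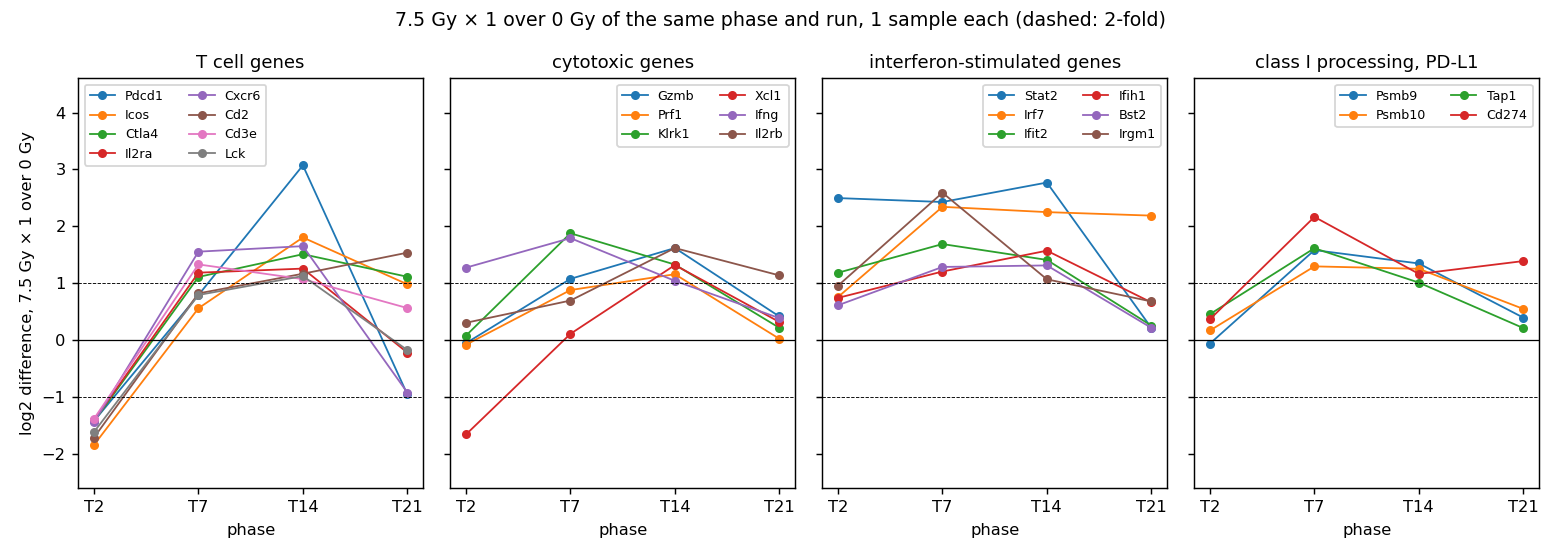
Log2 difference of 7.5 Gy × 1 over 0 Gy of the same phase and run (y axis) at T2, T7, T14 and T21 (x axis) for 24 genes at least 2-fold higher at T14, in 4 panels by role, with dashed lines at 2-fold and 1 sample per condition. The 8 T cell genes drawn were at least 2-fold lower at T2, where Pdcd1 was at background, and all 8 are genes flagged for that reversal. Cd3d, Cd5 and Map4k1, also at least 2-fold higher at T14, were not 2-fold lower at T2 and are not drawn. The interferon-stimulated genes were above 0 at each phase. Values were at or near background for Pdcd1, Stat2, Icos, Cxcr6, Klrk1 and Ifng.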

How the data were processed

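RNA of CD45+ tumor cells was read with the nCounter Mouse Immunology panel, a hybridization assay in which barcoded probes are counted directly, with no amplification step. Raw counts per probe were used as deposited by the authors. A second table deposited by the authors gave normalized signal. As read from its values, counts of each sample had been multiplied by 1 factor that brings 14 housekeeping probes to a common geometric mean of 789.3, and low values had been set to a floor at the negative controls. The factors were 1.45 for 7.5 Gy × 1 and 1.66 for 0 Gy. The authors' series table held the same values (0 of 7475 differed). Of 561 panel genes, 549 accessions matched a RefSeq symbol.

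A gene's difference is log2 of the ratio of normalized values, with values under 1 set to 1, counted at 2-fold. Intervals are 95% exact conditional binomial (Clopper-Pearson) intervals of the count ratio times the factors. The procedure was tested on simulated counts. No test across samples was made, because each condition has 1 sample. TMM (edgeR 4.0.16) and DESeq2 1.42.0 gave scaling factors only, in R 4.3.3. The remaining work was done in Python 3.11.15 with scipy 1.17.1, pandas 2.3.3, numpy 2.4.6 and matplotlib 3.10.9. The 29 gene lists, the pair of samples and the rule for named genes (all genes at 2-fold, the 3 nearest below it in each direction, the 4 largest of each list, and genes the study is about) were chosen with earlier results of these data known. Housekeeping scaling assumes that those probes keep their share of RNA, so a change in that share moves all genes together. Panel genes whose current symbol differs from the list, such as Ddx58, and unmatched genes entered no list.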

Additional observations from a re-analysis of the deposited data

Results flagged for a closer look

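For 9 of the 49 genes that were at least 2-fold higher after 7.5 Gy × 1 at T14, the value of the same contrast went at least 2-fold the other way at T2, with both counting intervals excluding 1. All 9 are lymphocyte genes. Their log2 differences at T2 were −1.84 for Icos, −1.72 for Cd2, −1.66 for Xcl1, −1.62 for Lck, −1.45 for Cxcr6, −1.43 for Ctla4, −1.42 for Il2ra and −1.39 for Cd3e, with both T2 samples above background. Pdcd1 (−1.42) had 2 counts against 8 at T2, and with 2 counts at background it was at least 1.21-fold lower, so a 2-fold difference was not measured there. At T2, 71 of 415 genes (17.1%) were at least 2-fold lower, and the median over the T cell receptor list was −0.71. With 1 sample per condition the difference between phases was not tested, and the T2 pair was read in run 3 and the T14 pair in run 2. The rule first named T7 and T21, where no gene met it, and T2 was added after the values were seen.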

How the results depend on the processing

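With housekeeping scaling 49 genes were at least 2-fold higher and 3 lower, with a median of 0.24. The counts were 26 and 14 (median −0.054) with DESeq2 size factors, 29 and 11 with TMM factors and also with total endogenous counts, and 17 and 20 (median −0.25) with 6 pan-leukocyte genes. Positive-control scaling gave 75 higher, and 11 housekeeping probes of at least 100 counts gave 5 lower. Without a filter on low counts 19 genes were lower. Genes above their own background in both samples gave 28 higher and 0 lower (no test was made), and a mean of at least 50 counts 25 and 1. Subtracting the mean negative control gave 99 higher, adding 20 before log2 gave 26 and 1, and a 1.5-fold threshold 120 and 18. Under the 6 scalings, 490 values of named genes and list medians stayed within their counting interval or, for lists, 1 SD of the members, and 62 moved further. No gene at 2-fold changed sign, which was fixed in advance, since each scaling shifts all genes alike by a log2 amount between −0.49 and 0.16. The lists whose median changed sign are given in the text. Background of 18.3 counts at 0 Gy limits the comparison: 21 of the 49 higher genes lay at it. No paired analysis was possible because each condition has 1 sample, and no sample could be left out.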
